A study of Mus musculus with 20 samples.

Results

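The long noncoding RNAs described here are 7 genes listed for description in ribosome pulldowns and tissue inputs of the mouse mediobasal hypothalamus: Malat1, Neat1, Meg3, Miat, Rmst, Snhg11 and Gas5. They were found in the deposited table by matching its Ensembl gene identifiers to the gene symbols of the mouse annotation. Of the 7 genes, 6 had an identifier among the 44674 genes of the table, and all 6 passed the filter on low counts that left 20234 genes for testing. Rmst was not analysed here. The annotation calls Malat1, Neat1, Meg3 and Miat lincRNA genes and Gas5 a processed transcript, whereas it lists Snhg11 as protein coding.

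The study tagged ribosomes of tanycytes, the glial cells that line the floor of the third ventricle, and sequenced RNA bound to them (the immunoprecipitate, here the pulldown) beside RNA of the same lysate (the input). All mice carried 1 copy of a Cre-dependent L10a-GFP allele in the Rosa26 locus and received AAV-Dio2-Cre in the lateral ventricle at 12 weeks of age, so that Cre was driven by the Dio2 promoter, and tissue was taken 4 weeks later. NCD control and HFD control mice had intact insulin receptor alleles (IR wt/wt; the sample labels name them IRmKate2), and IRΔTan mice were IR fl/fl and were fed NCD, the chow diet. HFD began at about 4 weeks of age, and the design text gives 8 weeks of feeding while the methods of the study give a longer time. There were 3 pools of NCD controls, 3 of IRΔTan mice and 4 of HFD controls, each of 5 to 7 mice of both sexes by the design text (4 to 7 by the protocol), with a pulldown and an input from every pool, hence 20 libraries from 10 pools.

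Libraries held 29469101 to 59385265 counts, with 29469101 to 34715304 counts in HFD pulldowns and 42867913 to 48625426 in NCD control pulldowns. Insr, the targeted gene, was at 14.2 ± 3.19 CPM (counts per 1000000 counts of the column; SD, n = 3) in IRΔTan pulldowns and at 42.3 ± 0.863 CPM (n = 3) in NCD control pulldowns. All 12 listed tanycyte markers were higher in pulldown than in input of NCD controls (median log2 change 4.07), and so were all 8 listed ependymal markers (median 5.47), although the tag was meant for tanycytes. A single gene annotated as ribosomal RNA, CT010467.1, took 15.5 to 18.9% of the counts of NCD pulldowns (controls and IRΔTan), 8.11 to 8.91% of those of HFD pulldowns, 1.37 to 1.52% of those of NCD control inputs, 1.39 to 2.08% of those of IRΔTan inputs and 3.81 to 5.5% of those of HFD inputs.

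Long noncoding RNAs are transcribed and often spliced like messenger RNAs but are not known to be read into long proteins. Malat1 stays in nuclear speckles, and Neat1 builds the paraspeckle, a body of RNA and protein in the nucleus. Meg3, expressed from the maternal copy of the imprinted Dlk1-Dio3 domain, and Miat are nuclear RNAs found in many neurons. Snhg11 and Gas5 carry small nucleolar RNAs in their introns, and the spliced Gas5 RNA is bound by ribosomes and removed by nonsense-mediated decay. The lysate was cleared of nuclei by centrifugation before the input aliquot was taken, so the input is the soluble part of the tissue and a nuclear RNA in it is RNA that reached the supernatant.

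Malat1 lies on chromosome 19 of GRCm38, on the minus strand, as chr19:5795690-5802672, and Neat1 lies 22036 bases from it as chr19:5824708-5845478 on the same strand. Mature Malat1 has no poly(A) tail, and its 3′ end is held by a triple helix of U-rich motifs and an A-rich tract. This stretch is shown because cDNA was primed by both poly(T) and random primers, so that an RNA without a tail could be read. It spans chr19:5795982-5796077, is written as DNA in the direction of the transcript, and has the first U-rich motif and the A-rich tract at its end in capitals.
Malat1: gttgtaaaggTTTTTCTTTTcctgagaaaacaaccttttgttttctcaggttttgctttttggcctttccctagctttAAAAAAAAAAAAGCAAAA

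Miat lies on chromosome 5 as chr5:112213228-112229395, on the minus strand, and is known for repeats of TACTAAC, the letters of a splicing branch point, which bind the splicing factor SF1. The transcript Miat-201 held 6 copies of these letters on its own strand, and the stretch with 3 of them, chr5:112216742-112216822, is shown in the direction of the transcript with each copy in capitals. Among 76 lincRNA transcripts of at least 5 kb, 13 (17.1%) held 1 or more copies, and the 2 (2.63%) with 6 or more were both transcripts of Miat. Of 5931 protein-coding transcripts of that length, 1 (0.0169%) held 6 or more.
Miat: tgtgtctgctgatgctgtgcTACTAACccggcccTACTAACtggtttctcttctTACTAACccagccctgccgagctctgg

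Gas5 lies on chromosome 1 as chr1:161034422-161038539, on the plus strand, with 10 small nucleolar RNA genes inside it and 25 annotated transcripts, 20 of which retain an intron. Gas5 is known as a gene whose transcript begins with a run of pyrimidines, the feature shared by messages for ribosomal proteins. Gas5 has several RefSeq starts, and the 80 bases around the start that has this feature, chr1:161035136-161035215 of GRCm38.p6, are shown with the starting C and its 4 following pyrimidines in capitals. A start of a C followed by at least 4 pyrimidines was found in 823 of 32851 RefSeq start windows (2.51%), that of Miat among them, and those of Malat1, Meg3 and Snhg11, as well as another start of Gas5, did not have it.
Gas5: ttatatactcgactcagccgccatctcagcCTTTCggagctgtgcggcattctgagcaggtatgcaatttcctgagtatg

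Meg3 lies on chromosome 12 as chr12:109541001-109571726, on the plus strand, and Snhg11 on chromosome 2 as chr2:158375638-158386145, on the plus strand, with 2 small nucleolar RNA genes inside it. The preparation did not mark strand, so reads of a gene and of a gene on its opposite strand cannot be told apart. The exons of Meg3 overlap those of Gm26906, which had 0 to 61 counts per library, at most 0.0842% of the Meg3 count, and those of Miat overlap Gm26953, with 0 to 89 counts, at most 5.22% of the Miat count. Within Malat1 the annotation places Gm37376, a model of 453 bases on the plus strand, which held 37.7 to 45.5% of the counts of the pair in every library. The Malat1 values given here leave those counts out, and the sum of both is given beside them where it matters.

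**Figure D1:**
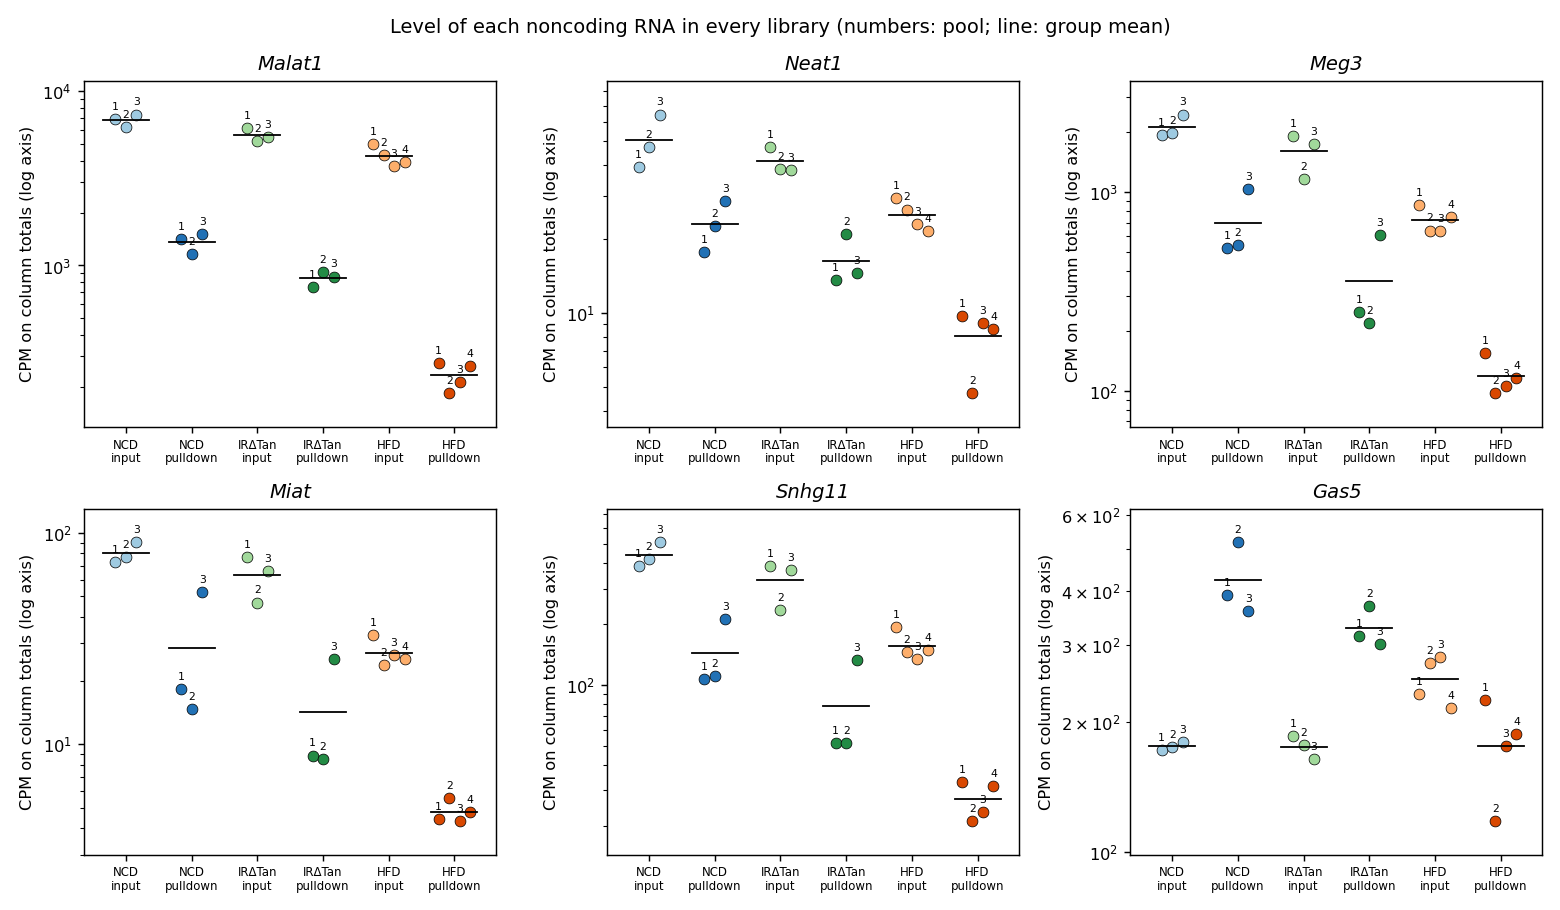
Level of the 6 measured noncoding RNAs in each of the 20 libraries, as CPM on column totals on a log axis, with the pool number beside each point and the group mean as a line. Malat1, Neat1, Meg3, Miat and Snhg11 sit lower in pulldown than in input in each condition and lowest in the HFD pulldowns, whereas Gas5 sits above its input on NCD and at 118 to 224 CPM in the HFD pulldowns.

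The first comparison asked which of the RNAs stood above or below their input level in pulldowns of mice on NCD. In NCD controls 5 of the 6 RNAs were lower in pulldown than in input and 1, Gas5, was higher, where 29.1% of all tested genes were called lower and 31.7% higher. The median log2 change of the 6 was -1.82, that of all tested genes -0.01. In IRΔTan mice the same 5 were lower and Gas5 was higher, against 29.4% lower and 31.3% higher of all genes, and the median of the 6 was -2.30. The 5 lower RNAs had values in pulldown that did not overlap those of input in either condition. The share of all genes without such overlap is not given here. In NCD control pulldowns 10 of 11 neuron (median -1.05), 8 of 8 oligodendrocyte (-1.82) and 8 of 8 microglia markers (-1.56) were lower too. Of 7 astrocyte markers 4 were lower and 1 higher, and of 5 endothelial markers none was lower and 1 higher. The part of expression in other cells in the lower values of the 5 RNAs was not tested.

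Malat1 was the most abundant of them, at 6932, 6255 and 7366 CPM in the 3 NCD control inputs and 1426, 1159 and 1508 CPM in their pulldowns. The pulldown of each pool held 0.185 to 0.206 of the CPM of its input. The fitted log2 change was -2.59 ± 0.14 (SE; edgeR quasi-likelihood test, adjusted p = 3.8e-12), and it was -2.49 when the counts of Gm37376 were added. In IRΔTan mice Malat1 stood at 6200, 5167 and 5503 CPM in input and 756, 917 and 864 CPM in pulldown, a log2 change of -2.91 ± 0.14 (adjusted p = 1.1e-12). Of all tested genes, 2.93% had a lower log2 change than Malat1 in NCD controls.

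Neat1, its neighbour, was far less abundant: 39.5, 47.6 and 64.4 CPM in NCD control inputs and 17.7, 22.7 and 28.6 CPM in pulldowns. The difference was smaller than that of Malat1, with a log2 change of -1.39 ± 0.22 (adjusted p = 2.5e-05), and in IRΔTan mice it was -1.51 ± 0.22 (adjusted p = 1.1e-05). Of the protein-coding genes whose products build paraspeckles with Neat1, 5 of 10 were higher and 3 lower in pulldown of NCD controls. Of all tested genes 31.7% were called higher there and 29.1% lower. Nono was at 156 against 90.8 CPM (log2 change 0.52 ± 0.09) and Srsf10, a splicing factor, at 109 against 57.6 CPM (0.66 ± 0.11). All 7 listed nuclear speckle protein genes changed, 5 upward and 2 downward, against the same shares of all genes. Srsf2 was at 0.59 ± 0.10 and Son, a scaffold of the speckle, at -0.39 ± 0.07. The value of Son was 0.09 with library totals that leave out CT010467.1.

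Meg3 was at 1927, 1989 and 2458 CPM in NCD control inputs and at 524, 541 and 1032 CPM in the matching pulldowns. Pool 3 thus stood above both of the others, and the highest pulldown was 1.97 times the lowest. The log2 change was -1.87 ± 0.35 (adjusted p = 2.8e-04). In IRΔTan mice the inputs were at 1916, 1169 and 1751 CPM and the pulldowns at 250, 218 and 606 CPM (-2.35 ± 0.36, adjusted p = 3.7e-05), again with pool 3 the highest.

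Snhg11 followed the same course at a lower level, with 388, 422 and 509 CPM in NCD control inputs and 107, 111 and 211 CPM in pulldowns (-1.88 ± 0.35, adjusted p = 2.6e-04). Miat was rarer still, at 72.8, 76.9 and 90.3 CPM in inputs and 18.2, 14.6 and 52.6 CPM in pulldowns. Its pulldowns differed 3.61-fold between pools, the widest spread of the 6 RNAs in this group. Its log2 change was -1.77 ± 0.43 (adjusted p = 0.0025), and it was -2.42 without NCD control pool 3. In IRΔTan mice the pulldowns of Snhg11 were at 51.6, 51.5 and 132 CPM and those of Miat at 8.83, 8.5 and 25.3 CPM, each highest in pool 3. The log2 changes there were -2.26 ± 0.35 for Snhg11 (adjusted p = 5.3e-05) and -2.34 ± 0.45 for Miat (adjusted p = 3.5e-04), the latter -2.96 without IRΔTan pool 3.

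Gas5 went the other way on NCD. The inputs held 172, 175 and 180 CPM and the pulldowns 392, 519 and 360 CPM in NCD controls, so each pulldown had 2 to 2.96 times the CPM of its input. The log2 change was 1.02 ± 0.16 (adjusted p = 1.2e-05). In IRΔTan mice the inputs held 185, 177 and 164 CPM and the pulldowns 316, 370 and 303 CPM, a log2 change of 0.74 ± 0.16 (adjusted p = 3.7e-04). In both conditions every pulldown lay above every input.

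**Figure D2:**
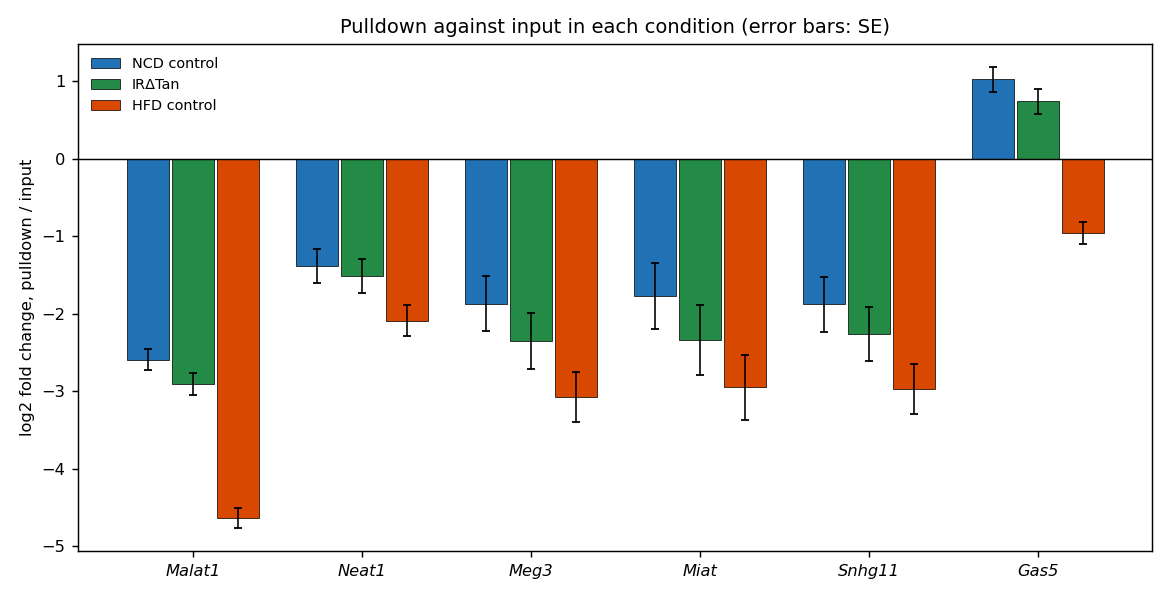
Log2 fold change of pulldown against input for the 6 noncoding RNAs in NCD control, IRΔTan and HFD control mice, with the standard error of the fit as error bars. Gas5 is above 0 in both NCD conditions (1.02 and 0.74) and below 0 on HFD (-0.96), and the other 5 are below 0 throughout.

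On HFD all 6 RNAs were lower in pulldown than in input (23.8% of all genes were called lower and 24.8% higher), with a median log2 change of -2.96 against -0.03 over all genes. Malat1 had 5013, 4300, 3716 and 3940 CPM in the 4 inputs and 274, 184, 215 and 266 CPM in the 4 pulldowns, so that each pulldown held 0.0427 to 0.0675 of the CPM of its input. This was a log2 change of -4.63 ± 0.13 (adjusted p = 2.3e-16), and 0.573% of all tested genes had a lower one. Meg3 (-3.07 ± 0.32), Snhg11 (-2.97 ± 0.32), Miat (-2.95 ± 0.42) and Neat1 (-2.09 ± 0.20) followed. Their pulldowns did not overlap their inputs, and the share of all genes without such overlap is not given here.

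Gas5 was at 232, 273, 282 and 215 CPM in HFD inputs and 224, 118, 176 and 187 CPM in HFD pulldowns. The groups overlapped on column totals, but the pulldown was the lower of the pair in all 4 pools, at 0.433 to 0.965 of the input. The log2 change was -0.96 ± 0.14 (adjusted p = 7.3e-06) and depended in size on the scaling. It was -0.51 on library totals (adjusted p = 0.0054) and -0.44 on totals without CT010467.1 (adjusted p = 0.014). Library totals raised the median log2 change of all genes by 0.44 in this comparison, by 0.25 in NCD controls and by 0.17 in IRΔTan mice relative to the TMM scaling of the fit.

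The effect of HFD on the RNAs was then read in each fraction of control mice. All 6 RNAs were lower in HFD than in NCD pulldowns, where 24.1% of all genes were called lower and 18% higher, and their median log2 change was -2.56 against -0.14 over all genes. None of the 6 had HFD pulldowns that overlapped NCD control pulldowns, and the share of all genes without such overlap is not given here. Meg3, Miat and Malat1 fell by amounts that did not differ beyond their errors. Meg3 changed by -2.65 ± 0.33 (adjusted p = 1.4e-05), from 699 ± 289 CPM (SD, n = 3) to 118 ± 25.3 CPM (n = 4), and Miat by -2.64 ± 0.43 (adjusted p = 1.9e-04), from 28.5 ± 21 to 4.76 ± 0.566 CPM. Without NCD control pool 3 the log2 change of Miat was -1.90 (adjusted p = 9.1e-04). Malat1 changed by -2.63 ± 0.12 (adjusted p = 1.7e-11), from 1364 ± 183 to 235 ± 43 CPM, and together with Gm37376 by -2.58.

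Snhg11 was at 33.1, 21.1, 23.3 and 31.4 CPM in the HFD pulldowns, a log2 change of -2.48 ± 0.33 from NCD controls (adjusted p = 2.6e-05). Neat1 was at 9.73, 4.7, 9.12 and 8.62 CPM there, pool 2 being the lowest, and changed by -1.61 ± 0.21 (adjusted p = 9.7e-06). Gas5 changed by -1.37 ± 0.14 (adjusted p = 5.6e-07), from 424 ± 83.9 to 176 ± 44 CPM.

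In input 5 RNAs were lower on HFD and Gas5 was higher (3.81% of all genes were called lower and 7% higher). Meg3 fell from 1927 to 2458 CPM in NCD control inputs to 859, 640, 633 and 751 CPM in HFD inputs, a log2 change of -1.45 ± 0.32 (adjusted p = 0.0079). Miat (-1.46 ± 0.39, adjusted p = 0.027) was at 32.7, 23.7, 26.5 and 25.4 CPM and Snhg11 (-1.40 ± 0.31, adjusted p = 0.0099) at 193, 145, 134 and 149 CPM. Malat1 (-0.59 ± 0.12, adjusted p = 0.0026) and Neat1 (-0.91 ± 0.20, adjusted p = 0.0061) changed less. Gas5 rose by 0.61 ± 0.15 (adjusted p = 0.0099), and each HFD input lay above every NCD control input. The call of Miat was lost when any HFD pool or NCD control pool 1 was left out (adjusted p = 0.052 to 0.095), and that of Neat1 when NCD control pool 3 was left out (-0.70, adjusted p = 0.05).

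**Figure D3:**
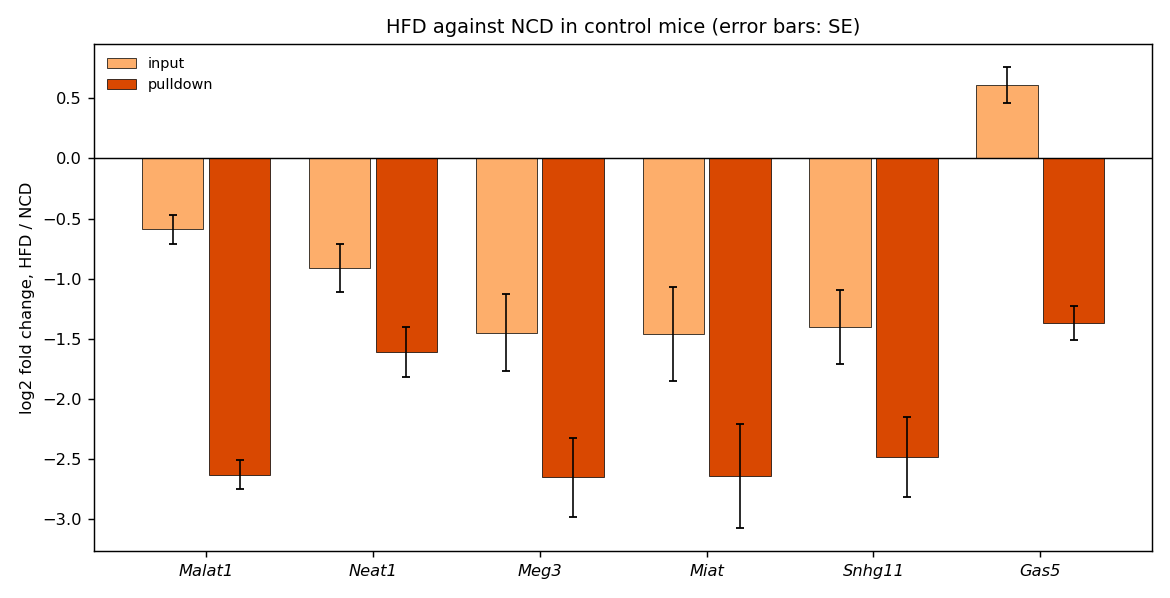
Log2 fold change of HFD against NCD in control mice for the 6 noncoding RNAs in input and in pulldown, with the standard error of the fit as error bars. All 6 are below 0 in pulldown (-1.37 to -2.65), and in input Gas5 alone is above 0 (0.61).

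Whether HFD changed the pulldown more than the input was tested as the difference of the differences. Malat1 (-2.04 ± 0.17, adjusted p = 1.5e-07) and Gas5 (-1.97 ± 0.21, adjusted p = 2.1e-06) were called lower, 2 of the 6, where 16.3% of all genes were called lower and 12.8% higher. The other values were -1.20 ± 0.45 for Meg3 (adjusted p = 0.059), -1.18 ± 0.58 for Miat (adjusted p = 0.15), -1.08 ± 0.45 for Snhg11 (adjusted p = 0.088) and -0.70 ± 0.29 for Neat1 (adjusted p = 0.082). With the pool as a block, which pairs each pulldown with its own input, 5 of the 6 were called: Meg3 at -1.15 (adjusted p = 0.0044), Snhg11 at -1.03 (adjusted p = 0.0082) and Neat1 at -0.73 (adjusted p = 0.037) joined them, and Miat at -0.97 (adjusted p = 0.18) did not. The value of Miat was -0.53 without NCD control pool 3.

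Several other measures of the pulldowns moved with diet, where 24.1% of all genes were called lower on HFD and 18% higher. The 12 tanycyte markers summed to 1352 to 1686 CPM in NCD control pulldowns and to 1387, 538, 995 and 1088 CPM in the 4 HFD pulldowns, and 6 of 12 were called lower and none higher. The 8 ependymal markers summed to 788 to 931 and 388 to 666 CPM, and 5 of 8 were called lower. HFD pool 2 had the lowest tanycyte sum and the highest oligodendrocyte sum (1643 CPM), and without it all 6 RNAs were still called lower on HFD. The 13 protein genes encoded in mitochondrial DNA summed to 2560 to 4550 CPM in NCD control pulldowns and to 502 to 1286 CPM in HFD pulldowns. The 11 neuron markers summed to 4418 to 5380 CPM in NCD control pulldowns and to 7598 to 9226 CPM in HFD pulldowns, and all 11 were called higher on HFD. Meg3, Miat and Snhg11, which neurons are known to express, thus fell in the same libraries in which the neuron markers rose. Tubb3, a neuronal tubulin, rose by 1.32 ± 0.11 and Snap25, of the synaptic release machinery, by 0.51 ± 0.10. Microglia markers summed to 38.4 to 45.2 CPM on NCD and 70.7 to 91.3 CPM on HFD, and oligodendrocyte markers to 480 to 882 and 741 to 1643 CPM. The part of these shifts in the levels of the 6 RNAs was not tested, and in such bulk libraries fewer cells of a type and less RNA per cell cannot be told apart.

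In input the neuron markers summed to 10263 to 10762 CPM in NCD controls and 8595 to 10516 CPM on HFD, ranges that overlap, while Meg3, Miat and Snhg11 did not overlap between the diets. Of the 11 neuron markers 2 were called higher and none lower in HFD input, where 7% of all genes were called higher and 3.81% lower. Small structural RNAs transcribed by RNA polymerase III moved upward there: all 4 tested ones rose, with Rn7sk, which holds the elongation factor P-TEFb, at 1265 against 491 CPM (1.46 ± 0.30) and Rpph1, the RNA of RNase P, at 28 against 5.84 CPM (2.36 ± 0.27). The sexes were pooled, and Xist, expressed in females, was at 6.59 to 12.2 CPM in HFD inputs and 2.96 to 6.09 CPM in NCD control inputs (log2 change 1.22 ± 0.66, adjusted p = 0.29). The 4 Y-linked genes summed to 51.8 to 73.8 CPM and 66.5 to 86.5 CPM there, and the part of the make-up of the pools in the diet differences was not tested. In pulldown of HFD controls the 4 structural RNAs were all lower than in input, Rn7sk by -4.31 ± 0.30. Of all genes 23.8% were called lower and 24.8% higher in that comparison.

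**Figure D4:**
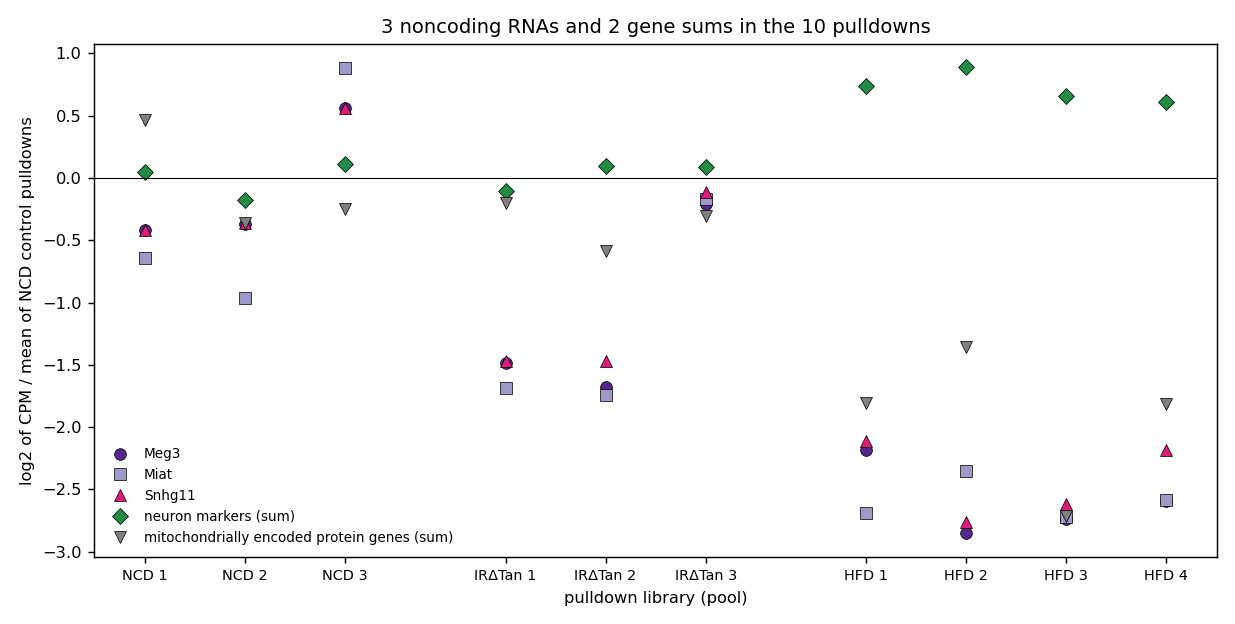
Meg3, Miat and Snhg11, the sum of 11 neuron markers and the sum of 13 mitochondrially encoded protein genes in the 10 pulldowns, each as the log2 ratio of its CPM to the mean of the 3 NCD control pulldowns. The 3 RNAs lie together and are highest in pool 3 of both NCD conditions, and in the 4 HFD pulldowns they are low while the neuron markers are high.

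Loss of the insulin receptor in tanycytes was compared with NCD controls, the same control libraries that the diet comparison used. In pulldown 1 of the 6 RNAs, Malat1, was called lower (0.262% of all genes were called lower and 0.114% higher). It was at 756, 917 and 864 CPM in IRΔTan and 1426, 1159 and 1508 CPM in NCD control pulldowns, with no overlap, and its log2 change was -0.66 ± 0.13 (adjusted p = 0.023). That call was lost without IRΔTan pool 1, 2 or 3 and without NCD control pool 1 or 3 (adjusted p = 0.052 to 0.12), and it was at an adjusted p of 0.31 when only the 6 libraries compared were fitted. Meg3 (-0.94 ± 0.34, adjusted p = 0.23), Snhg11 (-0.84 ± 0.34, adjusted p = 0.28) and Miat (-0.97 ± 0.44, adjusted p = 0.33) did not pass the test, and their groups overlapped through pool 3. Without IRΔTan pool 3, Meg3 (-1.52, adjusted p = 0.024) and Snhg11 (-1.42, adjusted p = 0.033) passed, and Miat was at -1.65 (adjusted p = 0.091). Without NCD control pool 3, Miat was at -0.23.

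In input none of the 6 RNAs was called (edgeR, adjusted p = 1 for each), where 0.00494% of all genes, a single gene, were called higher and 0% lower. At an unadjusted p under 0.05 there was 1, Malat1 (-0.34 ± 0.13; edgeR, unadjusted), and DESeq2 called none of the 6. Of the other values, the largest was that of Snhg11 (-0.46 ± 0.34) and the smallest that of Gas5 (-0.06 ± 0.16).

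Levels of different genes were compared per kilobase of all annotated exons, a length that need not be that of the RNA present. The exons of Gas5 cover 3.76 kb, mostly through models that retain introns, whereas its lincRNA transcripts have 346 to 665 bases, and Neat1 was divided by 20.771 kb although a form of 3004 bases is annotated. On this scale the order in NCD control inputs was Malat1 (981 ± 80.1 CPM per kb), Meg3 (117 ± 16.1), Snhg11 (51.6 ± 7.33), Gas5 (46.8 ± 1.07), Miat (8.61 ± 0.986) and Neat1 (2.43 ± 0.612). Snhg11 and Gas5 changed places among those libraries and did not differ beyond their spread. In NCD control pulldowns Gas5 (113 ± 22.3 CPM per kb) stood between Malat1 (195 ± 26.1) and Meg3 (38.6 ± 16). In all 4 HFD pulldowns Gas5 was the highest (46.9 ± 11.7 CPM per kb), above Malat1 (33.6 ± 6.16), which was the first in each of the other 16 libraries. That order turned when the counts of Gm37376 were added to Malat1, which then stood at 60.2 ± 11.7 CPM per kb and above Gas5 in all 4 HFD pulldowns.

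Gas5 was compared with the other listed genes that carry small nucleolar RNAs. Of 12 such genes tested beside Gas5 and Snhg11, 8 were higher and 1 lower in pulldown of NCD controls, with a median log2 change of 0.93. The shares of all genes were 31.7% higher and 29.1% lower. On HFD none of the 12 was higher and 8 were lower than in input (24.8% and 23.8% of all genes), with a median of -0.77. But on library totals 1 was higher and 3 were lower (median -0.33), and without HFD pool 2 the counts were 1 and 5. Between the diets all 12 were lower in HFD pulldowns (median -1.15), against 24.1% of all genes. In the difference of the differences 11 of the 12 were called lower, against 16.3% of all genes. In input none was called in either direction between the diets by edgeR, with 5 of 12 at an unadjusted p under 0.05. DESeq2 called 1 of the 12 higher in input, and a fit of the libraries compared alone called 6 higher. Snhg8 went from 16.4 to 5.54 CPM in pulldown (-1.66 ± 0.21, adjusted p = 2.3e-06) and Zfas1, on whose RNA several C/D box snoRNAs are carried, from 20.3 to 9.6 CPM (-1.17 ± 0.11, adjusted p = 1.4e-07).

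Snhg14, the long transcript of the imprinted Prader-Willi region, was the single lower one of the 12 in NCD control pulldowns (-1.42 ± 0.13, 132 against 296 CPM), which put it beside Snhg11. Snhg18 kept the highest value of the list on both diets, at 1.93 ± 0.24 on NCD, and at 0.47 ± 0.20 on HFD it did not pass the test (adjusted p = 0.058). Snhg17, the nearest tested neighbour of Snhg11 on the left, was at 3.56 CPM in NCD control pulldowns and 1.71 CPM in HFD pulldowns (-1.13 ± 0.24, adjusted p = 5.9e-04). Ralgapb, the neighbour on the other side, rose on HFD (0.40 ± 0.09, adjusted p = 7.9e-04).

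**Figure D5:**
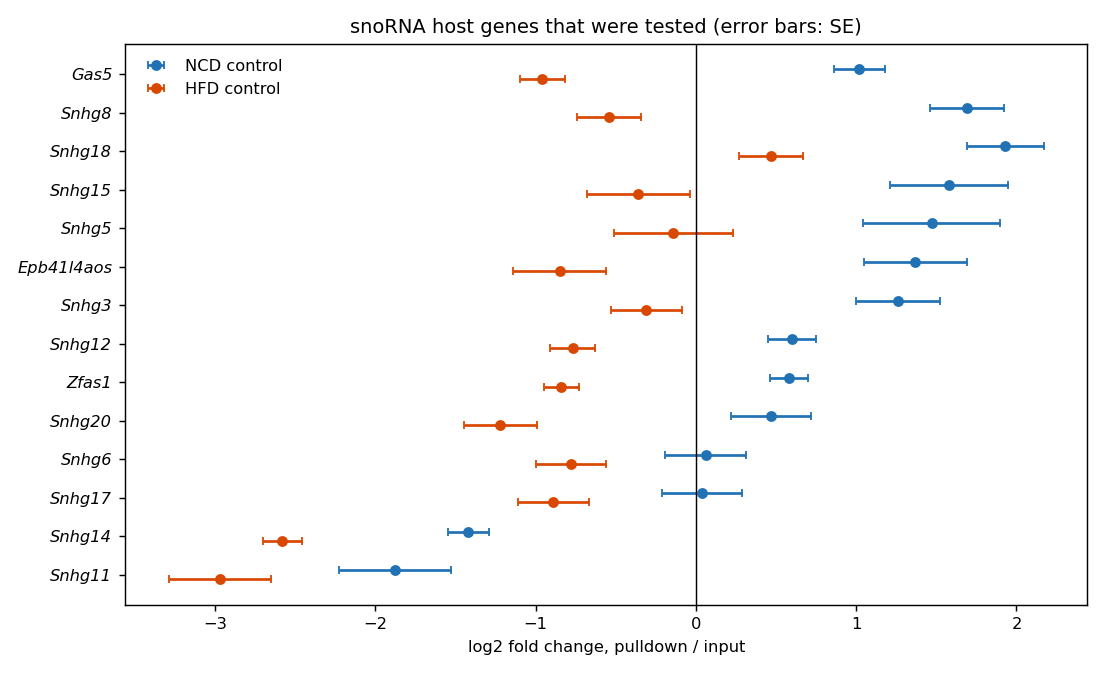
Log2 fold change of pulldown against input for the 14 tested genes that carry small nucleolar RNAs, in NCD control and HFD control mice, with the standard error of the fit as error bars. Every gene lies further left on HFD than on NCD, and Snhg14 and Snhg11 are left of 0 on both diets.

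Genes for factors that act on such transcripts moved less. Of 4 genes for proteins of C/D box snoRNA particles, 2 rose and 1 fell in HFD against NCD pulldowns. Of all genes 18% were called higher and 24.1% lower there. Nop58 was at 0.55 ± 0.11, Snu13 at -0.50 ± 0.10, and Fbl, the methyltransferase, at -0.10 ± 0.16 (edgeR, adjusted p = 0.63). Of 10 genes for nonsense-mediated decay factors 3 rose and none fell in the same comparison, against the same shares of all genes. Those that rose included Upf1, the helicase of the pathway, from 16.6 to 24.4 CPM (0.46 ± 0.10, adjusted p = 0.0011) and Smg6, its endonuclease (0.34 ± 0.09, adjusted p = 0.003). In NCD controls 6 of the 10 were higher and 2 lower in pulldown than in input, where 31.7% of all genes were higher and 29.1% lower.

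Meg3 shares the Dlk1-Dio3 domain with Rian and Mirg, noncoding RNAs of the maternal copy, and with Dlk1, Rtl1 and Dio3, expressed from the paternal copy. In NCD control pulldowns Rian (-1.49 ± 0.14, 151 against 354 CPM) and Mirg (-1.10 ± 0.40, 1.5 against 2.7 CPM) were lower than in input, while Dlk1 (0.80 ± 0.15, 167 against 81 CPM) was higher. Dio3, which inactivates thyroid hormone, was called higher at very low levels (0.163 against 0.0165 CPM), and Rtl1 was not called (0.04 ± 0.15, adjusted p = 0.85). On HFD Rian (-0.83 ± 0.12, adjusted p = 1.9e-05) and Mirg (-1.12 ± 0.40, adjusted p = 0.027) fell in pulldown beside Meg3, Rtl1 rose (0.53 ± 0.14, adjusted p = 0.0044), and Dlk1 (0.24 ± 0.14) and Dio3 (0.71 ± 0.83) did not pass the test. In HFD input Rian stood at 348 CPM against 354 CPM in NCD controls (0.08 ± 0.12, adjusted p = 0.78), where the log2 change of Meg3 was -1.45.

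Among all genes 29.1% were called lower and 31.7% higher in pulldown of NCD controls. Of 11 other RNAs listed as nuclear or bound to chromatin 6 were lower and 1 was higher there, with a median log2 change of -0.84. On library totals 3 were lower and 2 higher (median -0.60), and on totals without CT010467.1 3 were lower and 4 higher (median -0.37). Kcnq1ot1, which silences the imprinted Kcnq1 domain, was at 20.6 against 57.3 CPM (-1.73 ± 0.13), and Ftx, of the X-inactivation centre, at 4.85 against 14.1 CPM (-1.78 ± 0.27). Between the diets Ftx fell in pulldown (-1.53 ± 0.27) and in input (-1.57 ± 0.25), whereas Kcnq1ot1 fell in input (-0.74 ± 0.12) and at -0.22 ± 0.12 (adjusted p = 0.14) did not pass the test in pulldown. Of 14 further brain noncoding RNAs 7 were lower and 2 higher in pulldown of NCD controls, which became 4 and 2 on library totals and 3 and 2 on totals without CT010467.1, where the median turned from -0.32 to 0.16. Six3os1, transcribed beside the homeobox gene Six3, was one that was higher, at 44.6 against 9.82 CPM (1.93 ± 0.15). Tug1 at -0.42 ± 0.07 became 0.07 on totals without CT010467.1.

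Over the annotation classes, chosen after the values of the 6 RNAs had been seen, 259 of 810 lincRNA genes were lower and 132 higher in pulldown of NCD controls (32% and 16.3%), against 27.7% and 36.2% of 15934 protein-coding genes. In HFD against NCD pulldowns 189 lincRNA genes were lower and 25 higher (23.3% and 3.09%), against 24.6% and 22% of protein-coding genes. The median log2 change of lincRNA genes was -0.57 in each of these comparisons, and that of protein-coding genes was 0.08 and -0.07.

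Across the libraries of a fraction the 6 RNAs did not vary independently. Over the 10 pulldowns the correlation of log2 CPM was 0.996 between Meg3 and Snhg11, 0.961 between Meg3 and Miat and 0.921 between Malat1 and Meg3, points that share their library, its depth and the 3 conditions. Gas5 and Malat1 had 0.928 over the 10 pulldowns and -0.789 over the 10 inputs. Over all 20 libraries the correlation of Gas5 with the other RNAs was -0.126 (Miat) to 0.016 (Neat1). Among 9267 tested genes of at least 10 CPM on average, the gene most like Malat1 over the 20 libraries was Gm37376 (r = 0.999), whose reads cannot be told apart from its own, followed by 2900052N01Rik (0.977). For Meg3 and for Snhg11 the most similar were Mir124a-1hg (0.979 and 0.978), the host transcript of a miRNA known from neurons, and A330023F24Rik (0.976 and 0.975), and for Miat the same pair in the reverse order (A330023F24Rik at 0.988, Mir124a-1hg at 0.963). Mir124a-1hg was at 15.6 CPM in NCD control pulldowns and 1.38 CPM in HFD pulldowns, with a log2 change of -3.57 ± 0.40 (adjusted p = 5.3e-06). It was named for its correlation over these libraries and its small p between diets, so this fall is no separate evidence. Neat1 was most like Gm21092 and 3110039I08Rik (0.958 each) and Gas5 most like Cops9 (0.969), a subunit of the COP9 signalosome, and Rps12-ps3 (0.946).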

How the data were processed

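The table of 20 libraries, a pulldown and an input of each of 10 pools, was analysed as deposited. The authors made its expected counts per gene with Salmon 0.14.1 against the mouse genome GRCm38.p6. They were rounded to whole numbers (28% were not whole). The other deposited files hold the authors' comparisons of protein-coding genes and were not used. Gene names, types and positions are from GENCODE M21 (GRCm38), matched for 44118 of 44674 identifiers, and start windows are from RefSeq (GRCm38.p6). CPM are counts per 1000000 counts of the column, and CPM per kb divide by the length of all exons of a gene.

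Comparisons were fitted with edgeR 4.0.16 (quasi-likelihood, robust, TMM, filterByExpr at a minimum count of 10, 6 group means over all libraries, Benjamini-Hochberg adjustment over all 20234 genes, threshold 0.05) in R 4.3.3. Fold changes are on the TMM scale, and SE is the log2 change divided by the square root of F. The tests were tried on simulated data. The pools are of separate mice. A pulldown and an input of the same number share a lysate by the protocol. Their deviations from the group means correlated at 0.000662 to 0.151, over 0.1 in 5 of 10 pools, so the pairing comes from the protocol.

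The genes and lists were chosen with earlier results of these data known. Named beside the 6 RNAs are, from each list, up to 4 genes with the smallest p in NCD controls between pulldown and input and up to 2 between diets in pulldown, all Dlk1-Dio3 genes, tested neighbours (some are not reported here), and the 2 most correlated genes of each RNA (log2 of CPM plus 0.5). Other genes counted in the text belong to these lists, which had 169 entries, 12 without an identifier and 1 with a pair of identifiers. Alternatives were other scalings, DESeq2 1.42.0, other filters, fewer libraries, blocks and leaving out each pool. Adding Gm37376 to Malat1 was chosen after seeing the data.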

Additional observations from a re-analysis of the deposited data

Results flagged for a closer look

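The response to HFD differed between the fractions in 2 of the 6 RNAs by the test of the difference itself. For Malat1 the log2 change was -2.63 in pulldown and -0.59 in input, a difference of -2.04 (edgeR, adjusted p = 1.5e-07), and the change was negative in both fractions. For Gas5 it was -1.37 in pulldown and 0.61 in input, a difference of -1.97 (adjusted p = 2.1e-06), with opposite signs. This fit does not pair a pulldown with the input of its lysate, and with the pool as a block 5 of the 6 RNAs were called. In all 4 HFD pulldowns both RNAs lay below all 3 NCD control pulldowns. Over the 20 alternatives, one of which was added after seeing the data, the difference ranged from -2.11 to -1.85 for Malat1 and from -2.14 to -1.77 for Gas5. In the 12 sets of 4 HFD libraries examined, no library stood apart by Dixon's test.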

How the results depend on the processing

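Over 20 alternatives, the calls of the 6 RNAs between pulldown and input and between diets in pulldown did not change. Of 960 values of the 6 RNAs, 936 kept their side of the threshold, 12 gained a call and 12 lost it, and none changed sign. Between diets in input 5 to 6 of the RNAs were called, in the difference of the differences 2 to 5, and in IRΔTan against NCD control pulldowns 0 to 2. When only the libraries compared were fitted, 5251 genes were called between diets in input against 2188, 4 RNAs against 2 in the difference of the differences, and in IRΔTan 1 gene and 0 RNAs in pulldown against 76 and 1, and 13 genes in input against 1. DESeq2 called 463 genes in IRΔTan pulldown and 5 in input, and a filter of 5 CPM left 39 in pulldown. With the pool as a block, 5 RNAs were called in the difference of the differences. Comparisons between conditions took the replicate number as the block instead, and 44 genes were then called in IRΔTan pulldown. The blocks changed no other count by over 1.5 times. Numbers shared between conditions did not pair the pools (correlations of -0.156 to 0.093).

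Leaving out each pool in turn gave 1102 to 2081 genes between diets in input (1102 without NCD control pool 3, 1278 without HFD pool 3), 2 to 4 RNAs in the difference of the differences, 5 to 168 genes and 0 to 2 RNAs in IRΔTan pulldown, and 0 to 2 genes in IRΔTan input.

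Among other named genes, scaling turned the sign of pulldown against input. On totals without CT010467.1 the log2 change in NCD controls was 0.07 for Tug1, 0.09 for Son, 0.35 for Smg6, 0.15 for Nop56, 0.28 for Nop58, 0.39 for Tubb3 and 0.03 for Ralgapb. In IRΔTan it was 0.06 for Tug1, 0.10 for Son and 0.30 for Nop58. On HFD it was 0.20 for Tug1, 0.45 for Nudt21, 0.39 for Srsf3, 0.18 for Smg1, 0.23 for Elavl4 and 0.49 for Cnp, and on library totals 0.14, 0.39, 0.33, 0.11, 0.17 and 0.43 in the same order. The cause was not tested.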
